A study of Saccharomyces cerevisiae with 18 samples.

Results

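Poly(A) RNA from budding yeast carrying a substitution of lysine 467 in Nup60 was compared with RNA from yeast carrying the unsubstituted protein. The 12 substitution libraries, of 18 in all, comprised the 6 of strain K467N and the 6 of strain K467R, and the remaining 6 were WT. Each strain took an equal share of the substitution mean, so a gene that moved in a single strain counts at a reduced size. All genes in the files were considered, and 5660 of 7036 features had enough counts to be tested.

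All 3 strains were S288C with NUP60 fused to GFP, so the controls carry the tag too. WT kept the lysine codon, K467N encodes asparagine, which stands in for acetylated lysine, and K467R encodes arginine, which cannot be acetylated. The labels give HIS3 of Saccharomyces kluyveri as the selection marker of WT and K467N, and HIS3MX6 as that of K467R. Cultures were asynchronous, in rich medium with 2% glucose and adenine at 25 °C, and were collected at an optical density between 0.6 and 0.7. Neither the number of clones per strain nor whether each library is its own culture is stated, so p-values measure only how these libraries spread, which may be technical.

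Nup60 is a subunit of the nuclear basket, the filamentous structure on the chromosome-facing side of the nuclear pore. It anchors the basket proteins Mlp1 and Mlp2, and the basket is known for its part in mRNA export and for contacts with chromatin, including chromosome ends and induced genes. Lysine acetylation is added by complexes such as NuA4 and removed by deacetylases, some of which also regulate pore proteins in the cell cycle. The series asks about a general role of this acetylation in transcription, and the mean of both substitutions gives what both strains share against WT. Both strains are set against the same WT libraries. A change shared through losing the lysine therefore cannot be told apart from a trait of the WT strain.

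The substituted position is shown first because every comparison rests on it. The stretch below is codons 459 to 475 of the 539 codons of NUP60 on chromosome I, read 5′ to 3′ on the coding (plus) strand of RefSeq R64, with codon 467 in capitals. The files hold no reads, so the substitution itself was not checked.
NUP60: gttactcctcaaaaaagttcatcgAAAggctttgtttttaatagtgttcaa

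The 250 bases before the start codon are shown for the 4 genes that were higher in the substitution strains, because these genes moved together. All are read 5′ to 3′ on the coding (plus) strand of R64, on chromosome III for the first 3 and on chromosome VII for COS12. Capitals mark matches to CGGCCG, to TATAAA and to TTACTAA.
AAD3: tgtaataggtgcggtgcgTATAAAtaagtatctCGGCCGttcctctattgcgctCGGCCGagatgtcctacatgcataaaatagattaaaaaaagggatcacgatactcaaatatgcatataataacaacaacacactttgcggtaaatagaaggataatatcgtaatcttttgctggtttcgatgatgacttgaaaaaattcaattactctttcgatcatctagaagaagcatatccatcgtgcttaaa
RDS1: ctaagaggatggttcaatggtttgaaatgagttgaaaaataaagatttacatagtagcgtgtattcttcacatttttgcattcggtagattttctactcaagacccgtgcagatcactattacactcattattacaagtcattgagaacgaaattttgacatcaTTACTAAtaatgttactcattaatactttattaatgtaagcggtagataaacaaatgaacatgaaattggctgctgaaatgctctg
ADH7: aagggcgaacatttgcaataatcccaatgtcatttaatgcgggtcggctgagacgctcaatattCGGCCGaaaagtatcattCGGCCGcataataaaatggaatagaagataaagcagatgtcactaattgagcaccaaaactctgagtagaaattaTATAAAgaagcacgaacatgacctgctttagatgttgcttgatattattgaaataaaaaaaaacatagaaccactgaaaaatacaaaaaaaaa
COS12: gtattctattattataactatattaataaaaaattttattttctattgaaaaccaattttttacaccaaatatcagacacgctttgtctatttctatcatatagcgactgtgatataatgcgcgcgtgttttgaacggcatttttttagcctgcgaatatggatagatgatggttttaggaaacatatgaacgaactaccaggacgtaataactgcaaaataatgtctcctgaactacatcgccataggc

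The palindrome CGGCCG occurs 2 times before AAD3 and 2 times before ADH7, and not before RDS1 or COS12. It was chosen after these sequences had been seen. Among 6020 such upstream windows of the genome, 85 (1.41%) hold it at least once and 4 hold it 2 times or more. The other windows of those 4 belong to DPL1, a sphingolipid lyase, and MIM2, a mitochondrial import protein. The log2 fold change of DPL1 was -0.04 ± 0.04 and that of MIM2 0.16 ± 0.13, and neither passed the test. Of the 81 tested genes with CGGCCG, 48 lay above 0 with a median log2 fold change of 0.01, beside a median of -0.00 over all genes. TATAAA, searched on both strands, occurs in 43.6% of the windows, and TTACTAA, also on both strands, in 6.71%. The motifs do not overlap one another in the windows shown. The AT content of the 4 windows was 63.6 to 68%, beside a median of 65.2% over all windows.

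Libraries held 12395725 to 19093010 counts on genes in WT, 14061184 to 17111951 in K467N and 12910660 to 15492932 in K467R. The scaling factors of the trimmed mean of M-values (TMM) ran from 0.910 in K467R 1 to 1.06 in K467N 2, the libraries that stood farthest apart. The unit of level is CPM, which puts counts on 1 library size with TMM applied. Summed over the a-specific mating genes, levels were 1140 to 1355 CPM in WT, 1263 to 1423 in K467N and 1215 to 1333 in K467R. The alpha-specific genes summed to 22.9 to 41.1 CPM over all libraries, so each strain had the markers of the same mating type. The labels name no batch.

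In edgeR's quasi-likelihood test, two-sided with Benjamini-Hochberg adjustment at 0.05, 5 of 5660 genes (0.0883%) differed between the substitution strains and WT. Genes higher in the substitution strains numbered 4 (0.0707%), namely AAD3, RDS1, ADH7 and COS12, and 1 (0.0177%) was lower, HIS3. The 4 higher genes were all low in WT and rose 2.65-fold to 2.99-fold in the mean of both strains. HIS3 bears the name of the selection marker, and its low level was in K467R. More cells with a transcript and more of it per cell cannot be told apart in bulk libraries. Errors given with ± are the SE for a log2 fold change and the SD of 6 libraries for a CPM level.

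**Figure D1:**
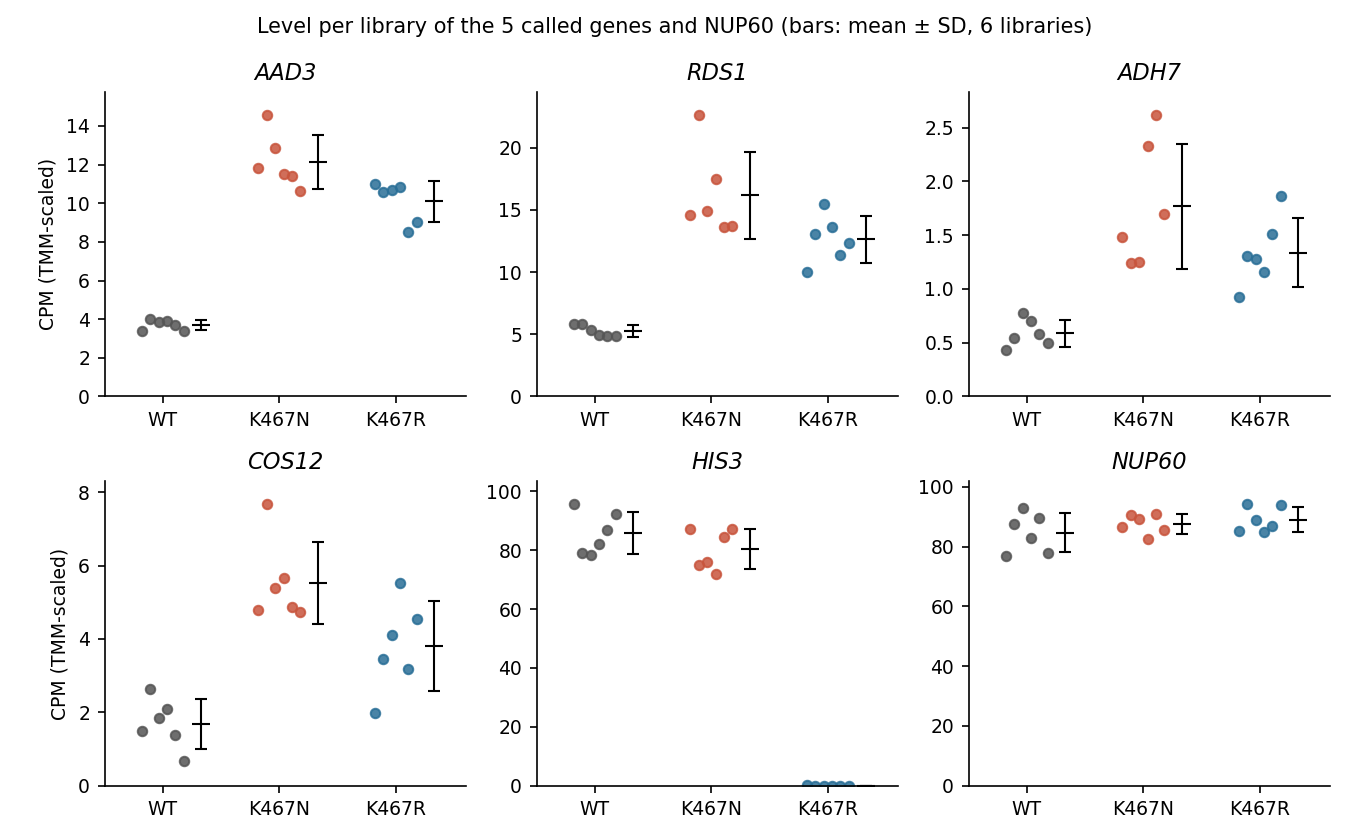
Level of the 5 called genes and NUP60 in each library, in CPM (vertical axes, starting at 0), for 6 WT, 6 K467N and 6 K467R libraries; points are libraries and bars are mean ± SD. AAD3, RDS1 and ADH7 show no overlap between the 12 substitution libraries and WT, COS12 overlaps in 1 library, HIS3 is at or near 0 in K467R, and NUP60 overlaps throughout.

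NUP60 itself (YAR002W), the edited gene, was read at 77.0, 85.2 and 93.1 CPM (lowest, median, highest) in WT. It was at 82.7, 87.9 and 90.9 CPM in K467N and at 84.8, 87.9 and 94.4 CPM in K467R. The groups overlapped, with a log2 fold change of 0.06 ± 0.04 that did not pass the test (edgeR adjusted p = 1.0). A substituted codon leaves the count unaltered, so this level checks the amount of transcript, not the genotype.

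The enzyme genes of the right end of chromosome III come first. AAD3 (YCR107W) encodes a putative aryl-alcohol dehydrogenase. It stood at 3.37, 3.77 and 4.01 CPM (lowest, median, highest) in WT, at 10.6, 11.7 and 14.6 CPM in K467N and at 8.49, 10.6 and 11 CPM in K467R. Every substitution library lay above every WT library, and the lowest of them was above the highest WT library by more than the whole range of WT. AAD3 rose by 1.58 ± 0.09 on the log2 scale, a 2.99-fold rise with a 95% interval of 2.64 to 3.39 (edgeR adjusted p = 1.09e-10). Set against WT singly, the log2 fold change was 1.71 ± 0.10 for K467N and 1.45 ± 0.10 for K467R.

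The other members of the aryl-alcohol dehydrogenase family did not pass the test. Log2 fold changes were -0.12 ± 0.07 for AAD4, -0.03 ± 0.06 for AAD6, -0.09 ± 0.07 for AAD10 and -0.10 ± 0.07 for AAD14. AAD15, too low to be tested, had 36 counts in WT, 36 in K467N and 53 in K467R, a ratio per library size of 1.2 with a counting interval of 0.808 to 1.82. AAD3 shares 97.7% identity with AAD15 over 432 bases, which is 39.6% of its coding length, so part of the reads of that stretch may have been left out or placed on the partner. Identity to AAD4 was 86.0% over 916 bases. No match in the coding sequences was found for RDS1, ADH7, COS12 or HIS3 at the limit used.

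ADH7 (YCR105W) encodes an NADPH-dependent alcohol dehydrogenase of broad substrate range. Levels were 0.427, 0.561 and 0.772 CPM in WT, 1.24, 1.59 and 2.62 CPM in K467N and 0.923, 1.29 and 1.86 CPM in K467R. These rest on 6 to 10 reads in a WT library, 19 to 42 in a library of K467N and 13 to 27 in one of K467R. Most WT libraries of ADH7 were under the filter on low counts, so ADH7 was tested only because its substitution libraries were higher. The groups did not overlap. ADH7 rose by 1.40 ± 0.23 on the log2 scale, a 2.65-fold rise (interval 1.91 to 3.66, edgeR adjusted p = 0.0043). The single-strain log2 fold changes were 1.61 ± 0.24 for K467N (edgeR adjusted p = 0.00226) and 1.19 ± 0.26 for K467R (edgeR adjusted p = 0.158), so against WT alone K467R did not pass. Of the 10 tested alcohol dehydrogenase genes, ADH7 was the 1 that passed. ADH5, the next by p, had a log2 fold change of -0.04 ± 0.05.

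RDS1 (YCR106W) encodes a zinc cluster protein, a class of fungal DNA-binding regulators, and is known for a part in cycloheximide resistance. It was at 4.84, 5.12 and 5.84 CPM in WT, at 13.6, 14.8 and 22.7 CPM in K467N and at 10.0, 12.7 and 15.5 CPM in K467R. Every substitution library was above all 6 WT libraries, and the K467N and K467R ranges overlapped. RDS1 rose by 1.43 ± 0.12 on the log2 scale, 2.70-fold with an interval of 2.28 to 3.20 (edgeR adjusted p = 1.49e-07). Singly, the values were 1.61 ± 0.13 in K467N and 1.26 ± 0.13 in K467R.

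COS12 (YGL263W), at the left end of chromosome VII, belongs to the COS family of membrane proteins, which assist the sorting of membrane cargo to the vacuole. WT libraries read 0.662, 1.67 and 2.65 CPM, K467N libraries 4.75, 5.13 and 7.68 CPM and K467R libraries 1.99, 3.77 and 5.54 CPM. All 6 K467N libraries and 5 of 6 K467R libraries were above WT, while K467R 1, at 1.99 CPM, lay within the WT range. COS12 rose by 1.43 ± 0.22 on the log2 scale, 2.69-fold with an interval of 1.97 to 3.68 (edgeR adjusted p = 0.00244). The single values were 1.69 ± 0.23 for K467N (edgeR adjusted p = 0.00085) and 1.16 ± 0.25 for K467R (edgeR adjusted p = 0.151). Of the 7 tested COS genes, COS12 was the 1 that passed. COS8, the outermost tested gene of the left arm of chromosome VIII, had a log2 fold change of -0.31 ± 0.10 (edgeR adjusted p = 1.0).

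The 4 genes stayed among the low transcripts of the cell after the rise. Per kb of coding length, AAD3 was at 3.39 CPM in WT and 10.2 CPM in the substitution strains, RDS1 at 2.11 and 5.76, COS12 at 1.48 and 4.08, and ADH7 at 0.54 and 1.43. On that scale AAD3 moved from percentile 4.48 to percentile 12.8 of the tested genes, and ADH7 from percentile 0.493 to percentile 1.92. Summed, the 4 genes took 11.3 ± 1.23 CPM in WT (n = 6), 35.6 ± 5.58 in K467N (n = 6) and 27.9 ± 3.19 in K467R (n = 6).

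Non-overlap of all 12 substitution libraries with WT was found for 3 of 5660 genes above WT (0.0530%), AAD3, RDS1 and ADH7. Of these, ADH7 met the filter on low counts through its substitution libraries. No gene had all 12 libraries below WT. Without WT 3 the count on either side was 5, with RRT6 and PAU23 below WT. Without K467N 2 and K467R 1, the log2 fold changes were 1.54 for AAD3, 1.40 for RDS1, 1.49 for ADH7 and 1.44 for COS12, and all 4 passed.

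**Figure D2:**
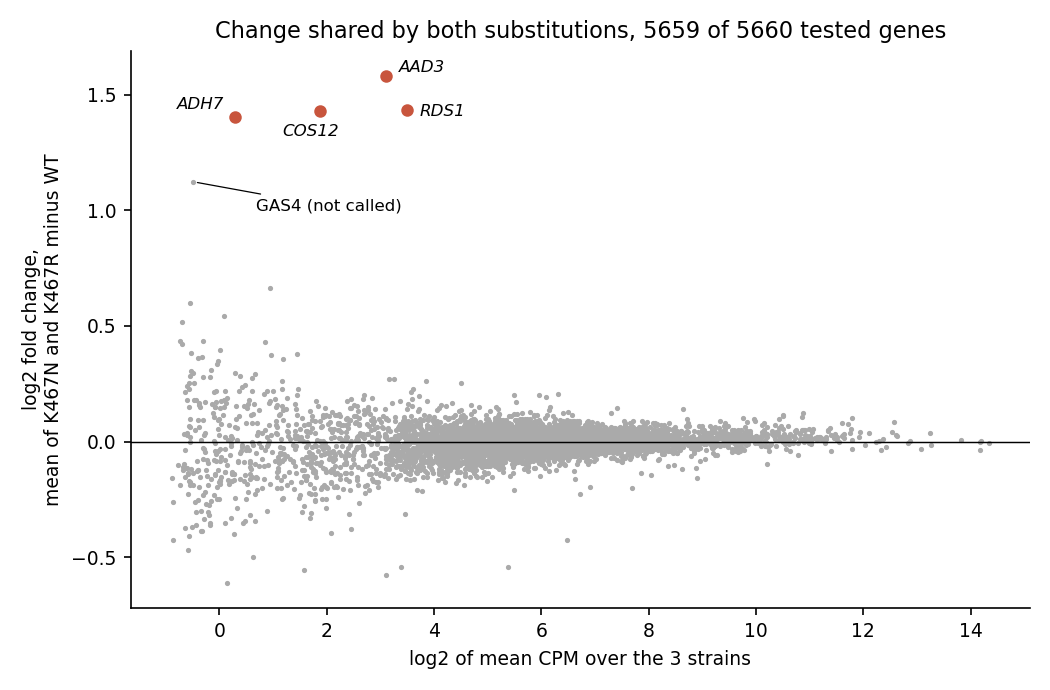
Log2 fold change of the substitution mean over WT (vertical axis) against the mean level in log2 CPM (horizontal axis), 1 point per tested gene, with called genes marked. AAD3, RDS1, ADH7 and COS12 lie at low levels between 1.40 and 1.58, apart from the mass of genes around 0; HIS3, far below the axis, is left off.

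All 4 raised genes were at chromosome ends. By the gene order of R64, AAD3, RDS1 and ADH7 were the outermost 3 tested genes of the right arm of chromosome III, in that order from the end, and COS12 was the outermost of the left arm of chromosome VII. Of the 96 genes that are the outermost 3 of the 32 arms, 4 passed the test and 35 lay above 0, beside 5 (0.0883%) and 2806 of the 5660 genes tested. On the other 30 arms, 9 of 30 outermost genes lay above 0, with a median log2 fold change of -0.04. That range ran from -0.37 for VTH1 to 0.30 for VTH2, and 0 of the 30 passed. With the outermost 3 genes of these 30 arms, 30 of 90 were above 0 with a median of -0.03, and 0 passed.

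On the right arm of chromosome III the rise stopped between ADH7 and the next tested gene. Inward of ADH7, log2 fold changes were 0.12 ± 0.14 for YCR102C, 0.08 ± 0.13 for YCR101C and -0.06 ± 0.09 for EMA35. None passed the test. Farther in, GIT1, a permease for glycerophosphodiesters, had a log2 fold change of 0.38 ± 0.14 (unadjusted p = 0.0115, edgeR adjusted p = 1.0). HMRA1, of the silent mating cassette, gave -0.00 ± 0.08, on reads it shares with the identical gene at the mating locus. PAU3, a cell wall protein gene between ADH7 and YCR102C, was too low to test, with 24 counts in WT, 34 in K467N and 19 in K467R. Its ratio of substitution to WT libraries was 1.07 with a counting interval of 0.652 to 1.82.

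On the left arm of chromosome VII, YGL262W lies between COS12 and VEL1 and was too low to test. It had 2 counts over the 6 WT libraries, 21 over K467N and 16 over K467R. Counts per library were 0, 0, 1, 0, 0 and 1 in WT, 5, 5, 2, 1, 3 and 5 in K467N and 3, 1, 5, 1, 2 and 4 in K467R. Each substitution library thus had at least 1 count and 4 WT libraries had none, with a ratio of 9.0 and a counting interval of 2.32 to 77.1. In a fit without the filter on low counts it did not pass (edgeR adjusted p = 0.423). Farther in, VEL1 had a log2 fold change of 0.13 ± 0.22, MNT2, a mannosyltransferase gene, -0.04 ± 0.07, and ADH4, another alcohol dehydrogenase gene, -0.00 ± 0.03. The untested YPS5, of a family of aspartic proteases, had 20 counts in WT, 44 in K467N and 37 in K467R, a ratio of 1.97 with a counting interval of 1.2 to 3.4. In the fit without the filter on low counts, YPS5 did not pass either (edgeR adjusted p = 0.9999). PAU11 had 12, 22 and 13 counts, a ratio of 1.42 with an interval of 0.719 to 3.0. The annotated features YCR108C and YGL260W were at 0 in all libraries.

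**Figure D3:**
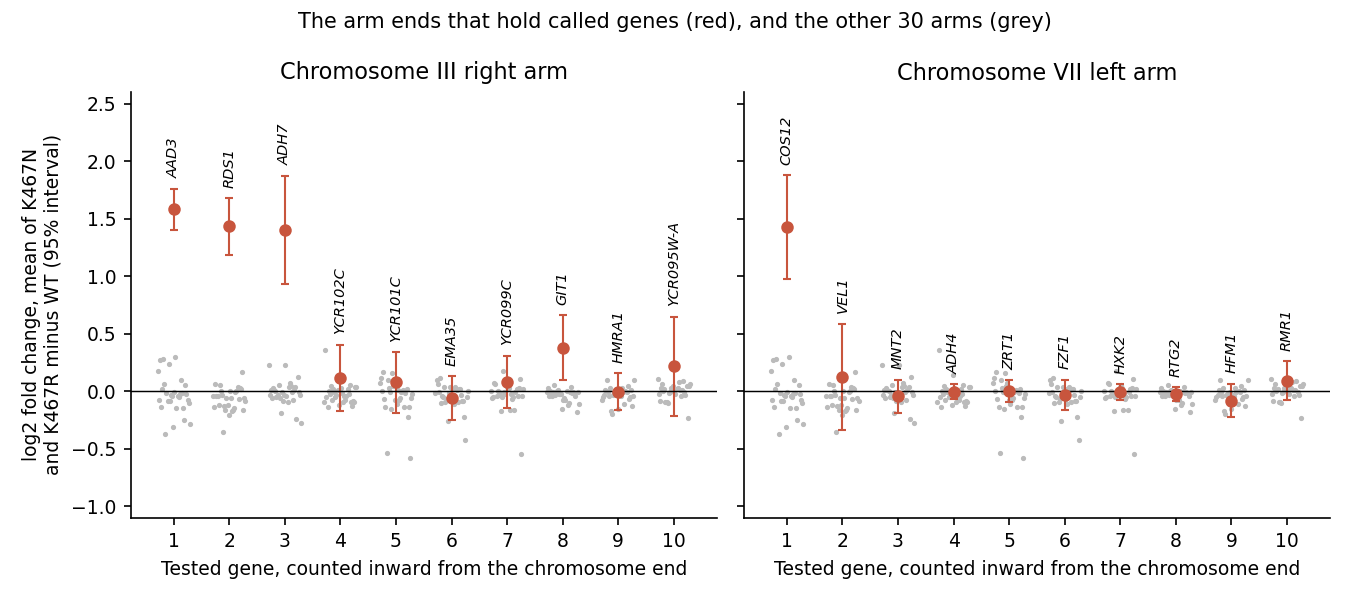
Log2 fold change of the substitution mean over WT (vertical axis, with 95% interval) against rank of the tested gene from the chromosome end (horizontal axis), for the right arm of III and the left arm of VII, with the other 30 arms beside them. The raised genes are ranks 1 to 3 on III right and rank 1 on VII left, while the outermost genes of the other arms lie between -0.37 and 0.30.

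HIS3 (YOR202W) encodes an enzyme of histidine synthesis. Its levels were 78.5, 84.5 and 95.8 CPM in WT, 71.8, 80.3 and 87.2 CPM in K467N, and 0, 0 and 0.071 CPM in K467R. The 6 libraries summed to 7468 counts in WT, 7394 in K467N and 1 in K467R. The ratio of WT to K467R per library size was 7488, with a counting interval of 1344 to 295807. K467N and WT overlapped, with a log2 fold change of -0.10 ± 0.06, so the fitted mean of both strains (edgeR adjusted p = 2.18e-19) describes neither. With the 12 substitution libraries under 1 term, HIS3 did not pass (edgeR adjusted p = 1.0). K467R is also the strain with the other marker, and marker and substitution cannot be told apart in it. Beside HIS3, the log2 fold change was -0.02 ± 0.04 for MRM1, a mitochondrial rRNA methyltransferase, and -0.06 ± 0.05 for DED1, an RNA helicase.

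The difference between K467N and K467R, which is independent of the WT level, was tested for the raised genes in the same fit. The log2 difference of K467N over K467R was 0.26 for AAD3 (interval 0.09 to 0.44), 0.36 for RDS1 (0.11 to 0.60), 0.42 for ADH7 (-0.01 to 0.85) and 0.53 for COS12 (0.10 to 0.96). None passed the adjustment over 5660 genes (edgeR adjusted p = 0.408 for each). Unadjusted p was 0.0051 for AAD3, 0.0064 for RDS1, 0.0558 for ADH7 and 0.018 for COS12, and the intervals, which are not adjusted for the number of genes, left out 0 for AAD3, RDS1 and COS12. HIS3 was the only gene of 5660 (0.0177%) called between the strains.

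**Figure D4:**
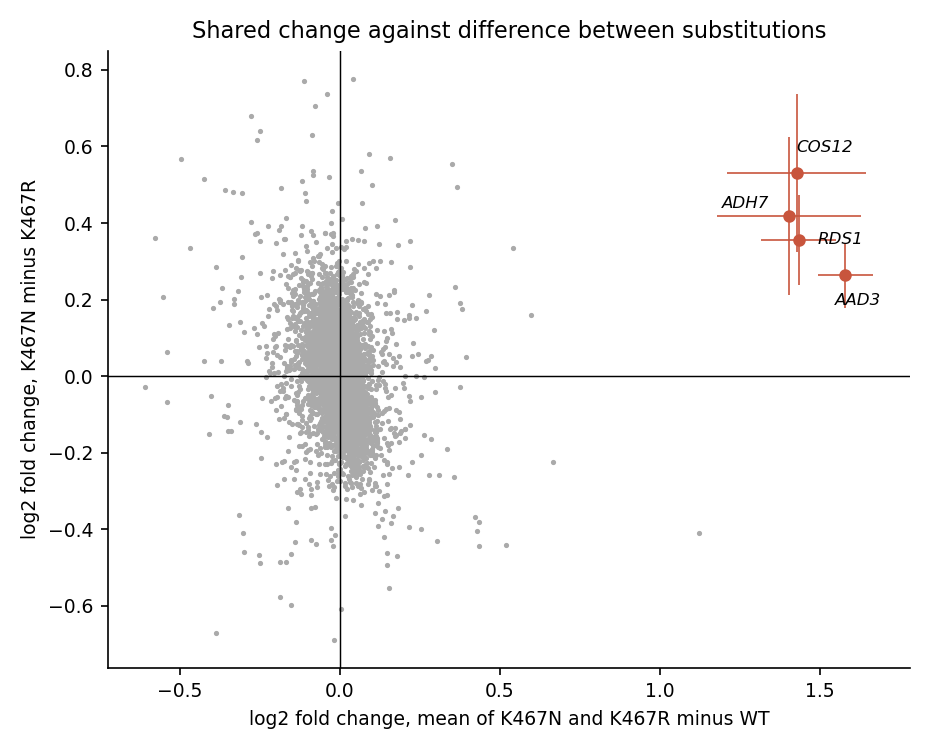
Log2 fold change of the mean of both strains over WT (horizontal axis) against the log2 difference of K467N over K467R (vertical axis), 1 point per tested gene, with called genes marked. The 4 raised genes lie at 1.40 to 1.58 on the horizontal axis and 0.26 to 0.53 on the vertical axis; HIS3 is left off because it falls outside both axes.

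Against WT singly, K467N gave 4 calls of 5660 (0.0707%), all higher. K467R gave 4 (0.0707%), of which 2 (0.0353%) were higher and 2 (0.0353%) lower. These contrasts share the WT libraries. The lower calls of K467R were HIS3 and PHM8. The mean over both strains was the more precise measure: the median SE of a log2 fold change was 0.0595, against 0.0685 for K467N and 0.0688 for K467R.

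The 10 genes with the smallest p that did not pass had smaller values than the 4 raised genes. GAS4, a glucan-modifying enzyme of spore wall formation, had a log2 fold change of 1.12 ± 0.30 (edgeR adjusted p = 0.773). Its mean was 0.412 CPM in WT, 0.735 in K467N and 0.998 in K467R, and 8 of 12 substitution libraries were above all WT libraries. Most WT libraries of GAS4 were under the filter on low counts (median 0.384 CPM). GAS4, like ADH7, was thus tested only because its substitution libraries were higher, and its library count is a description. YBL113C, a helicase-like gene of the repeated Y′ element and the outermost tested gene of the left arm of chromosome II, had a value of 0.27 ± 0.07 (edgeR adjusted p = 0.773), with 9 of 12 libraries above WT. Reads of Y′ copies can be split among near-identical genes, so this value is uncertain. ORM1, a regulator of sphingolipid synthesis, had a log2 fold change of 0.12 ± 0.04 (edgeR adjusted p = 1.0).

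The remaining 7 of those 10 had negative values. They were -0.38 ± 0.10 for MAY24, -0.33 ± 0.09 for RRT6, -0.31 ± 0.10 for COS8 and -0.15 ± 0.05 for POG1. PHM8, a phosphatase induced by low phosphate, had a value of -0.21 ± 0.05, made up of -0.08 in K467N and -0.34 in K467R. Set against WT singly, PHM8 passed in K467R (edgeR adjusted p = 0.0427) and not in K467N. GCN4, the activator of amino acid synthesis genes, had a log2 fold change of -0.09 ± 0.03, with 10 of 12 libraries below all WT libraries. It passed with DESeq2 (adjusted p = 0.0436) and with 2 surrogate variables (edgeR adjusted p = 0.00571). Its mean level was 1229 CPM in WT, 1176 in K467N and 1127 in K467R. SIR2, the deacetylase of telomere silencing, was at 46.6 CPM in WT, 43.8 in K467N and 42.4 in K467R, a log2 fold change of -0.11 ± 0.04 with 9 of 12 libraries below WT. For the mean of both strains, the adjusted p of edgeR was 0.773 for PHM8 and MAY24 and 1.0 for the others.

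Gene groups are described by counts and medians beside the median of -0.00 over all genes. Of 40 lists, 35 had 0 members called, and the 5 with a call were those holding HIS3 or the 4 raised genes. The list medians ran from -0.11 to 0.04 on the log2 scale, and 35 of 40 lay within 0.05 of 0.

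Among pore and export genes, none passed. For the 5 nuclear basket genes the median of log2 fold changes was 0.03, and 4 were above 0, with NUP1 at 0.03 ± 0.04. The 27 other nucleoporins had a median of 0.00 (14 above 0), and their members of smallest p were POM34 (0.09 ± 0.05) and GLE1 (0.07 ± 0.04). The 5 TREX-2 genes, whose complex docks at the basket for mRNA export, had a median of -0.01, and CDC31 had 0.05 ± 0.06. The 14 other mRNA export genes had a median of 0.01, with DBP5, the export helicase, at 0.04 ± 0.03.

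Among acetylation and silencing genes, none passed. The 13 NuA4 genes had a median of 0.01, with ESA1, the catalytic subunit, at -0.06 ± 0.04. The 13 lysine deacetylase genes had a median of 0.00 and the 15 telomere silencing genes a median of 0.01, and SIR2 was the member of smallest p of both. The 7 inducible genes often studied at the pore had a median of 0.01, with GAL1 at -0.10 ± 0.07 and SUC2, the invertase, at -0.05 ± 0.04.

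Of the growth and cell cycle groups, none had a called member. The 39 genes of Start and G1/S, with WHI5, the inhibitor of Start, at 0.20 ± 0.10 and PCL1, a G1 cyclin, at 0.11 ± 0.06, had a median of 0.03 with 27 above 0. The 16 genes of the CLB2 cluster had a median of -0.01. Of 137 cytosolic ribosomal protein genes 117 lay above 0, with a median of 0.03 that was -0.05 in K467N and 0.10 in K467R. The ribosomal protein median thus had opposite signs in the strains, and the mean describes neither. Sulfur and methionine genes had the highest median, 0.04, with 18 of 20 above 0, and the strain medians were -0.01 and 0.09.

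The lowest medians were in cell wall and iron genes. The PAU, TIR and DAN family encodes cell wall mannoproteins, and its 10 tested members were PAU2, PAU7, PAU17, PAU23, TIR1, TIR2, TIR3, TIR4, DAN1 and DAN4. Their median was -0.11 with 0 above 0, at -0.11 in K467N and -0.12 in K467R. None of the 10 passed, and PAU23 had a log2 fold change of -0.29 ± 0.10. The median of the 23 iron regulon genes was also -0.11, 2 being above 0. FRE3 was at -0.18 ± 0.08 and FRE5 at -0.58 ± 0.34, both of the ferric reductase family. The median was -0.06 for general stress genes, of which 5 of 20 were above 0, and -0.08 for galactose genes, of which 2 of 9 were. Members of a list share regulation and libraries, so counts above 0 are descriptions.

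**Figure D5:**
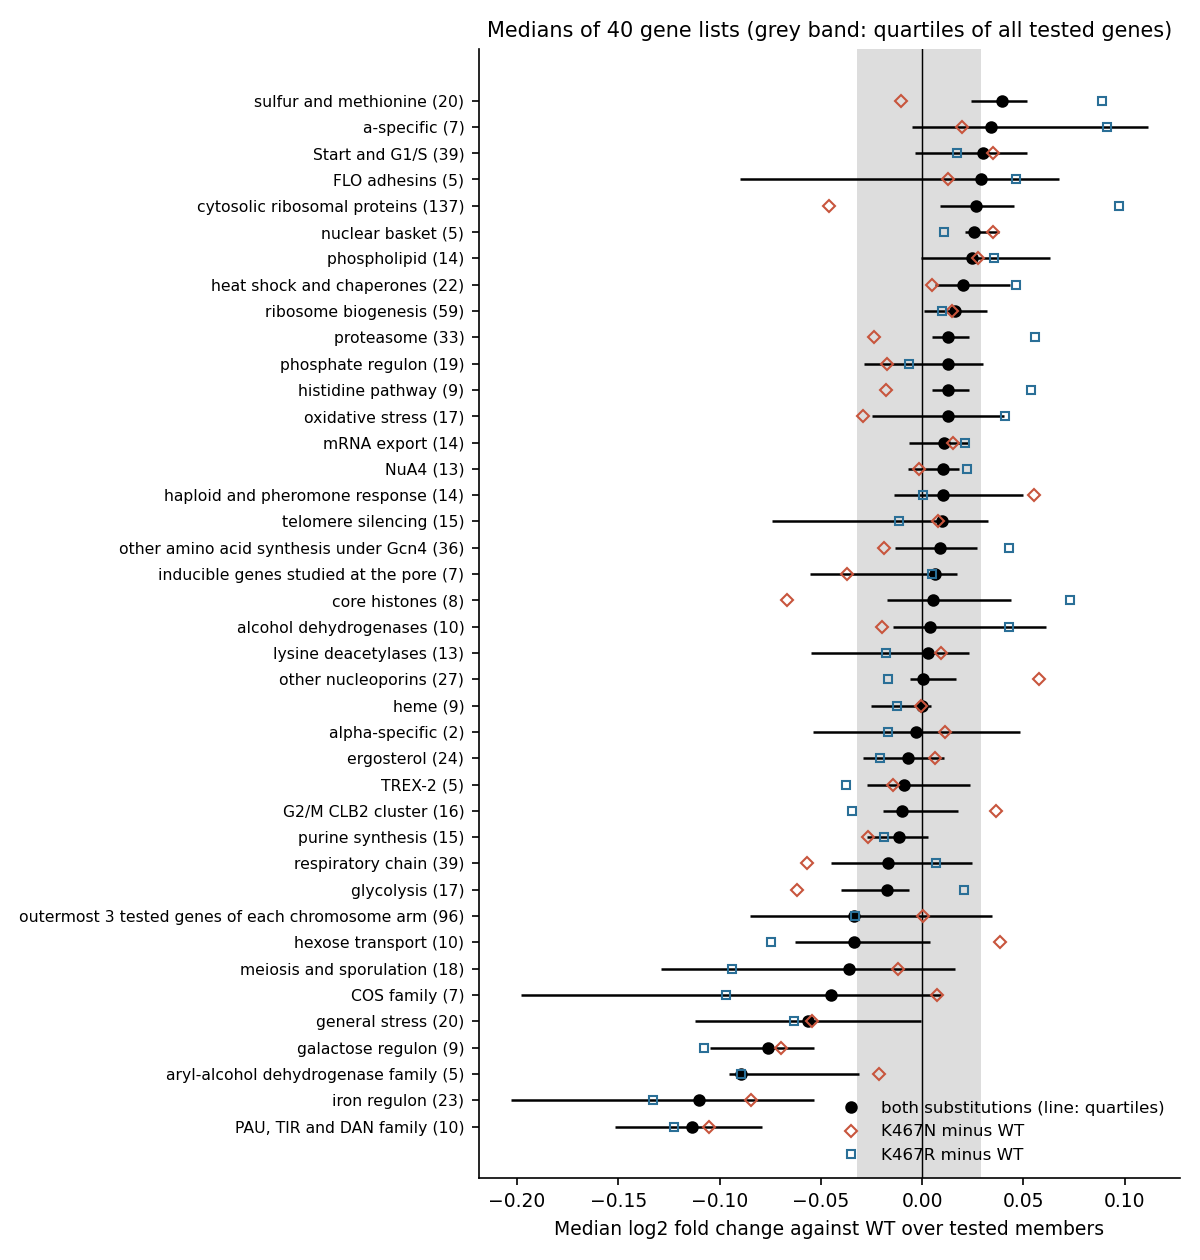
Median log2 fold change of each gene list (rows) for the mean of both substitutions and for each strain against WT (horizontal axis, log2), with the number of tested members, lines for member quartiles and a grey band for the quartiles of all genes. List medians of the mean lie between -0.11 and 0.04, the PAU, TIR and DAN list and the iron list are lowest, and the ribosomal protein list is at -0.05 in K467N and 0.10 in K467R.

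The size of change that these libraries bound was computed for every gene. For 4767 of 5660 genes (84.2%) the 95% interval of the substitution mean lay inside 1.2-fold in both directions, and for 5495 (97.1%) inside 1.5-fold. Among the 2947 genes at 50 CPM or more in WT, 97.8% were inside 1.2-fold, and among the 506 genes under 5 CPM it was 3.56%. AAD3, ADH7 and COS12 belong to that lowest class, where the median half-width of the interval was 0.353 on the log2 scale, against 0.103 in the highest. Unadjusted p was under 0.05 for 108 genes, 38 higher and 70 lower, where 283 would fall under it if p were uniform. In the same fit it was under 0.05 for 65 genes in K467N against WT and 321 in K467R against WT. Between K467N and K467R it was under 0.05 for 635 genes, more than for the change shared by both.

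The split of WT against the substitution libraries was a small part of the leading variation between libraries. In a principal component analysis without HIS3, component 1 took 39.3% of the variance, of which that split made up 0.911% and the 3 strains 19.1%. Component 3 took 5.88%, of which the split made up 13.9% and the 3 strains 23.6%. Component 4 took 5.21%, of which the split made up 54.1%. With HIS3 kept in, the split made up 2.94% of component 1 and 32.0% of component 2, and the 3 strains 31.0% and 71.6%.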

How the data were processed

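The deposited values are raw counts per gene, 1 file per library, from 18 libraries. Per the submitters' processing notes, reads were handled with HTSeq 0.6.1p1, STAR 2.5.3a and bcl2fastq 2.20.0.422. Build, annotation release and strandedness of counting were not given in the sources used here; coordinates are therefore left out. Reads on genes were 75.3 to 76.2% of those HTSeq sorted; rows for non-unique (18.3 to 19.6%), unassigned and ambiguous reads were left out. Of 7036 features 6076 matched R64 by identifier.

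Counts were filtered (filterByExpr), TMM-scaled and tested in R 4.3.3 with edgeR 4.0.16 (quasi-likelihood, robust, strain as the only term), contrasting the mean of K467N and K467R with WT (two-sided, Benjamini-Hochberg threshold 0.05). The 1376 untested features held 0.0137% of gene counts. Counting intervals are 95% and cover counting error only. The comparison and the 40 gene lists were chosen with earlier results of these data known. Named genes are NUP60, all genes that pass, the next 10 by p, genes without overlap, the 2 members of smallest p per list, and neighbours of called genes; family members, motif carriers and untested neighbours were added after their values were seen. Alternatives used DESeq2 1.42.0, limma 3.58.1 and sva 3.50.0. Data were simulated for this contrast with 200 genes changed alike in both strains (5643 tested). Of the changed genes, 84% were recovered at 1.25-fold and 100% at 1.5-fold, 2-fold and 3-fold, and 4% of calls were unchanged genes. With 200 changed genes the adjusted threshold is easier to pass than in the real data, where 5 genes were called. Genes were also drawn independently of one another. Recovery in the real data may therefore be lower. Changed genes were drawn above a floor of WT level. ADH7 (0.586 CPM) and GAS4 (0.412 CPM) lay below it, so recovery at such levels was not tested.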

Additional observations from a re-analysis of the deposited data

Results flagged for a closer look

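A library far from the other 5 of its strain was found in 16 of 165 groups of 6 libraries, over 55 genes; chance alone gives about 1 in 20, or 8.25. Among the called genes these were COS12 in K467N 2, at 7.68 CPM, and HIS3 in K467R 1, at 0.071 CPM, which is 1 read. K467R 1 also stood apart for EMA35 (4.26 CPM), MIM2 (27.5 CPM), WHI5 (18.4 CPM), CDC31 (43.1 CPM) and RPP2B (2440 CPM), and K467N 2 for CDC31 (30.6 CPM). Without both libraries AAD3, RDS1, ADH7, COS12 and HIS3 were called as before.

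Near the 2 chromosome ends, YCR102C stood apart in K467R 2 (6.29 CPM), and VEL1 in WT 1 (1.44 CPM) and in K467R 4 (1.61 CPM). Single libraries also stood apart for ORM1 in WT 6 (52.8 CPM), POG1 in WT 1 (14.2 CPM), PAU23 in K467N 4 (2.72 CPM), MET17 in WT 5 (632 CPM) and HOP1 in WT 2 (6.25 CPM).

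HIS3 differed between the substitution strains, with K467N above K467R by a fitted 11.95 on the log2 scale (edgeR adjusted p = 2.06e-21), a size that depends on the prior count. Outside the tested genes, YGL262W had 37 counts in the 12 substitution libraries and 2 in the 6 WT libraries.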

How the results depend on the processing

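AAD3, RDS1, ADH7, COS12 and HIS3 were called in 27 of 29 alternatives. With at least 10 CPM in 6 libraries 3 were called (ADH7 and COS12 were not tested). AAD3 and RDS1 were at most 4.01 and 5.84 CPM in WT, so they met that filter only through substitution libraries. With 1 term for all 12 substitution libraries 4 were called, HIS3 then having -1.09 (edgeR adjusted p = 1.0). With 2 surrogate variables 8 were called, including GCN4 (edgeR adjusted p = 0.00571), and with DESeq2 6, including GCN4 (adjusted p = 0.0436). Over the alternatives that tested them, log2 fold changes were 1.54 to 1.60 for AAD3, 1.38 to 1.47 for RDS1, 1.24 to 1.49 for ADH7 (adjusted p 0.000104 to 0.0337) and 1.28 to 1.60 for COS12 (adjusted p up to 0.0175). Between K467N and K467R, DESeq2 called 2 genes, HIS3 and COS1, by alternatives chosen after seeing the data. Leaving out 1 library at a time gave 3 to 5 genes without overlap; the 5 came without WT 3. Signs turned for EMA35 with array weights (0.0200). Leaving out 1 library, AAD6 ran from -0.0562 to 0.00717 (positive without WT 2), MRM1 from -0.0303 to 0.00395 (positive without WT 4) and VEL1 from -0.0134 to 0.382 (negative without K467R 4). The causes were not tested. The 1000 list medians were those of 40 lists in 25 alternatives each, and none moved beyond its spread. Some lists had medians on both sides of 0, such as the ribosomal proteins at -0.011 to 0.054. No paired analysis was possible because the labels give no pairing between libraries of different strains. Depth limits genes under 5 CPM, where few intervals are narrow.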

Other observations

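Some features too low to test had uneven counts. YFL065C had 53 counts in WT, 8 in K467N and 34 in K467R, a ratio of substitution to WT libraries of 0.386 with a counting interval of 0.251 to 0.589, and it was called lower in the fit without a filter on low counts (edgeR adjusted p = 0.047). YBL070C had 24, 51 and 43 counts in WT, K467N and K467R, a ratio of 1.91 with an interval of 1.21 to 3.12. YGR190C had 0, 15 and 7 counts. YLR124W had 91 counts in WT, of which 85 were in WT 1, 5 in K467N and 4 in K467R. Of these features, only YFL065C passed in the fit without the filter on low counts, and YBL070C did not (edgeR adjusted p = 0.9999). All of them were picked for their counts, after the values had been seen.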
